A study of Rattus norvegicus with 4 samples.

Results

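Peaks of the testis linker histone H1T2 whose nearest annotated gene was an olfactory or vomeronasal receptor gene were examined in rat spermatid chromatin. They were the peaks of the annotated list with a nearest gene name beginning with Olr, Vom1r or Vom2r, and numbered 120 of the 1859 annotated peaks that carried a gene name (6.46%, 95% Wilson interval 5.43 to 7.66%). The 3 families hold a similar share of protein-coding genes in RefSeq (GRCr8), 1461 of 23154 (6.31%). The copy of the study's annotation used here was shortened to 1930 peaks, the strongest of the 11570 deposited, each with a -log10 p-value of at least 17.78. These are called annotated peaks below, and the weaker peaks, though also annotated in the study, were not in that copy. Chromatin came from testes of rats aged 35 to 50 days, labelled as round and elongating spermatids, and comprised 2 H1T2 immunoprecipitated (IP) samples and 2 input samples. Strain and genotype were not given in the sources used here. The header of the list names merged alignments of each kind, so that each peak has 1 set of values and no spread between replicates. The study also describes calls made per replicate and a list of peaks shared by both, and the files used here do not settle this difference. As the assay holds DNA alone, the labelled cell type could not be checked against markers.

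H1T2, also called H1fnt, is a linker histone made in haploid male germ cells, where it takes part in the condensation of chromatin before protamines replace the histones. Olfactory receptors (Olr) are membrane receptors of the main olfactory epithelium that bind odorants, and each mature sensory neuron expresses essentially a single receptor gene. Vomeronasal receptors detect pheromones and related cues in the vomeronasal organ, with small receptors in the Vom1r family and receptors with a large extracellular domain in the Vom2r family. All 3 families are large, their genes stand in clusters of near copies, and some olfactory receptors are also expressed in testis and sperm.

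The strongest of these peaks by fold enrichment lay 2962 bp downstream of the transcription start site (TSS) of Olr299, at chr1:213008609-213009881 of rn6. It was intergenic and centred in a CpG island, the only peak of the 120 with that annotation (0.833%, 0.147 to 4.57%), against 42 of 1739 other gene-named peaks (2.42%, 1.79 to 3.25%). Its pileup, which counts IP tags over the summit, was 76 tags over a local background of 1.65 tags. The fold enrichment, which is the ratio of these values, was 45.96, and 5 of the 42 CpG island peaks at other genes had a larger one. The region was among those that the study amplified by ChIP-PCR. The primers called CpG were assigned to it here because region and primers hold the same place in the study's lists. They were not aligned to rn6, and are shown because they are designed sequences that this assignment links to the peak of largest fold. Written 5′ to 3′ with any CG dinucleotide in capitals, they are:
CpG_F: atttgccaatactcaggaaatgatacc
CpG_R: cactcatttcaaaacaagctgcaatta
Both primers are 27 bases long and hold 0 CG dinucleotides. Their G+C content is 37.0% and 33.3%.

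The 120 peaks were nearest to 84 receptor genes. Olr genes accounted for 73 peaks at 65 genes, Vom2r genes for 44 peaks at 17 genes and Vom1r genes for 3 peaks at 2 genes. Most genes, 67 of 84, were nearest to 1 peak and 14 were nearest to 2. The remaining 3 genes, all vomeronasal (Vom2r9, Vom2r56 and Vom2r7), were nearest to 25 peaks together. Without Vom2r9 and Vom2r56, 23 Vom2r peaks lay nearest to 15 genes. The families differ in size, with 1278 olfactory and 78 Vom2r protein-coding genes in RefSeq, and the part of family size in the number of peaks per gene was not tested.

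By gene identifier, 83 of the 84 genes were found in RefSeq (GRCr8). For 56 genes, the protein-coding genes on both sides in RefSeq also carried a receptor name, namely 52 of 64 matched Olr genes, 1 of 2 Vom1r genes and 3 of 17 Vom2r genes. Neighbours named only by a locus number were not counted as receptors. RefSeq placed 5 genes (Olr206, Olr901, Olr1280, Olr1301 and Olr1455, chosen after their values were seen), nearest to 7 peaks, on another chromosome than the peak. This was 5.88% of the 119 matched receptor-gene peaks, against 4.58% of the 1617 matched other peaks. For these peaks the nearest gene name rests on the rn6 annotation alone.

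In fold enrichment the 120 peaks stood close to the other 1739 gene-named peaks. The median was 7.16 (quartiles 4.95 and 9.62) near receptor genes and 7.48 (quartiles 5.59 and 10.18) at the others, a difference of -0.06 in median log2 fold with bounds of -0.24 to 0.12 from the 95% order-statistic intervals of both medians. A fold of at least 10 was reached by 27 receptor-gene peaks (22.5%, 95% Wilson interval 15.9 to 30.8%), against 25.8% of the other gene-named peaks. The median pileup was 50 tags (quartiles 36 and 74.5) against 48 tags (quartiles 34 and 72). Median peak length was 330 bp near receptor genes and 356 bp elsewhere. For each of these medians the interval over the 120 peaks overlapped that over the other peaks. Intervals of medians and shares treat each peak as 1 draw, although peaks of 1 locus are not independent of each other. They do not cover spread between replicates.

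Within the receptor families the values diverged. Olr peaks had a median fold of 7.86 (quartiles 6.53 and 10.49) over a median background of 5.37 tags. Vom2r peaks had a median fold of 4.46 (quartiles 3.07 and 8.41) over a median background of 18.5 tags, although their median pileup, 78 tags, was above the 46 tags of Olr peaks. An alternative added once the values were known left out the peaks nearest Vom2r9 and Vom2r56. The remaining 23 Vom2r peaks then had a median fold of 8.35 over 4.55 tags. Their median pileup was 40 tags (32 to 52), with an interval that overlapped that of Olr peaks (40 to 50). The low median fold, high median background and high median pileup of the Vom2r family were not seen without these 2 genes. Their 13 and 8 peaks had median folds of 2.70 and 3.51, so the rise in median fold followed from leaving them out. Single peaks among the remaining 23 still reached 252 tags and a background of 90.6 tags. The highest values of Olr peaks were 108 tags and a background of 21.5 tags.

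**Figure D1:**
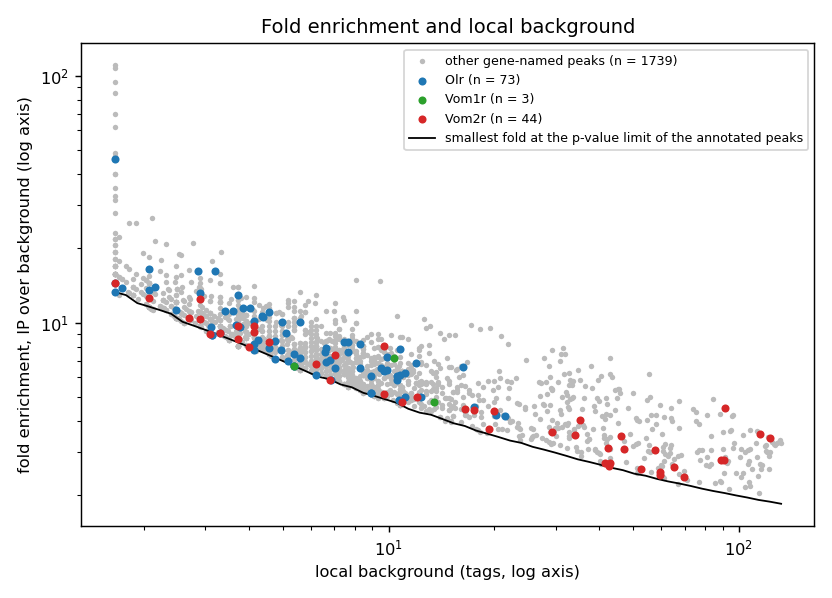
Fold enrichment of the 1859 gene-named annotated peaks against local background in tags, both on log axes, with 1 point per peak. The line gives the smallest fold that reaches the -log10 p-value of 17.78. Vom2r peaks reach backgrounds of up to 123 tags, and those at the highest backgrounds lie well above the line.

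The p-value limit of the shortened copy sets the smallest fold that a peak can have at a given background. Its part in the relation of fold and background was not tested. At the smallest background of the list, 1.65 tags, a peak needed 22 tags and a fold of 13.3 to be within that copy. At 42.6 tags, the median background of the peaks nearest Vom2r9, a fold of 2.61 was enough. Over the 120 peaks, fold and background had a Spearman's rho of -0.94, and over the 1739 others -0.91. Both numbers describe 1 list in which the fold contains the background as its divisor, and no test was made.

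After Olr299, the largest fold enrichments belonged to peaks with few background tags. The peak nearest Olr1765 (chrX:136145610-136146136), in RatSatRep2, had 34 tags and a fold of 16.44 (95% exact Poisson interval 11.4 to 23.0). It lay 591.9 kb from the TSS of that odorant receptor gene. Olr1071 on chromosome 7 had 52 tags and a fold of 16.23 (12.1 to 21.3), also in RatSatRep2. At Olr1474 on chromosome 10 a peak annotated to the transcription termination site had 46 tags and a fold of 16.12 (11.8 to 21.5). The peaks nearest Olr1678 and Vom2r16, tied at a fold of 14.51 (9.30 to 21.6), had 24 tags each. Their intervals overlapped, so these 5 peaks cannot be ranked, whereas the lower bound of the Olr299 peak, 36.2, lay above all of their upper bounds. These and the other fold intervals count every tag, and are wider with each pair of tags counted once. They were then 9.58 to 26.3 for the Olr1765 peak and 32.5 to 63.1 for the Olr299 peak.

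Only 4 of the 120 peaks (3.33%, 1.30 to 8.26%) were called against the smallest background, those nearest Olr299, Olr1678, Vom2r16 and Olr1845. Among the other gene-named peaks the share was 5.29%. Apart from Olr299 these peaks were in RNHAL1, an L1-derived element.

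Receptor-gene peaks lay nearer to a TSS than the other peaks. Measured from the peak centre, the median distance was 40.0 kb (quartiles 9.64 and 227.3 kb), against 121.9 kb (quartiles 40.3 and 381.2 kb) for the others. Within 10 kb of the TSS were 31 of 120 peaks (25.8%, 18.8 to 34.3%), compared with 133 of 1739 (7.65%, 6.49 to 8.99%). Nearly all of these, 28 of 31, were Olr peaks. The Olr family had a median distance of 15.3 kb with 38.4% within 10 kb (28.1 to 49.8%), while Vom2r peaks had a median of 237.8 kb with 6.82% within 10 kb (2.35 to 18.2%). Without Vom2r9 and Vom2r56 the Vom2r median was 125.8 kb, with 13.0% within 10 kb (4.54 to 32.1%), and the median of all receptor-gene peaks fell to 20.6 kb. The spacing of genes was not taken into account, and its part in the result was not tested.

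**Figure D2:**
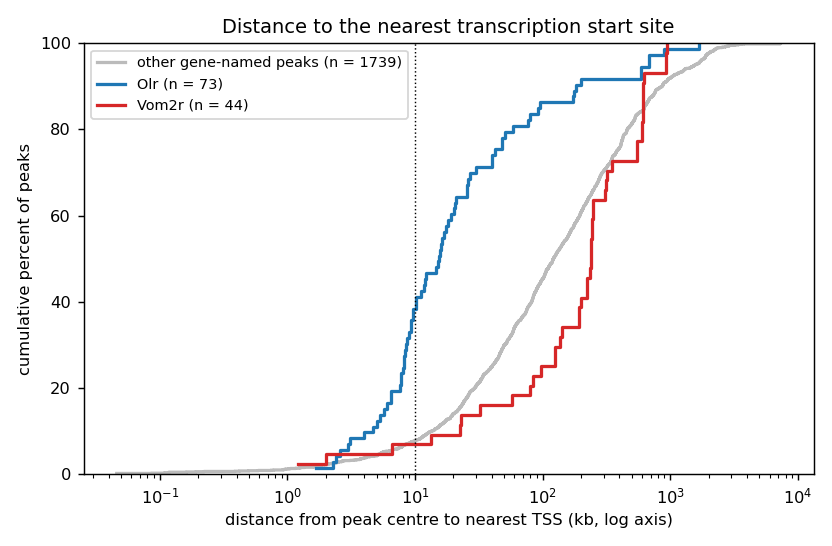
Cumulative percent of peaks against the distance from peak centre to the nearest TSS in kb on a log axis, for 73 Olr, 44 Vom2r and 1739 other gene-named peaks. The dotted line marks 10 kb, within which 38.4% of Olr, 6.82% of Vom2r (13.0% without Vom2r9 and Vom2r56) and 7.65% of the other peaks lay.

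Within repeat classes the median distances went both ways. Among peaks in L1 the median distance was 19.1 kb for the 49 receptor-gene peaks and 148.1 kb for the 682 others. By family it was 16.1 kb for 38 Olr peaks (8.92 to 25.5 kb) and 188.3 kb for 10 Vom2r peaks (6.59 to 553.1 kb), with overlapping intervals. Of these 10 Vom2r peaks, 7 remained without Vom2r9 and Vom2r56. Among peaks in RatSatRep2 the median distance was 22.8 kb for 42 receptor-gene peaks and 145.0 kb for 493 others. There it was 15.2 kb for 31 Olr peaks (9.29 to 40.1 kb) and 83.9 kb for 9 Vom2r peaks (22.4 to 924.1 kb), again with overlapping intervals. Receptor-gene peaks had larger medians in the other main classes. Without a repeat these were 236.7 kb (141.6 to 248.8 kb) for 16 peaks and 76.3 kb (54.0 to 96.5 kb) for 223 others. In satellites or simple repeats they were 605.9 kb (125.8 to 615.7 kb) for 10 peaks and 235.4 kb (144.3 to 410.5 kb) for 215 others, with overlapping intervals. Of the receptor-gene peaks in these classes, 11 of 16 were nearest Vom2r9 and 6 of 10 nearest Vom2r56. Without both genes the median was 198.2 kb (1.67 to 604.6 kb) for 5 peaks without a repeat. For 4 peaks in satellites or simple repeats it was 221.3 kb (20.6 to 346.3 kb), so that there the order of the medians turned. Both intervals overlapped those of the other peaks. Fold enrichments near receptor genes and elsewhere had medians of 8.22 and 8.22 in L1 and of 7.76 and 7.52 in RatSatRep2. They were lower near receptor genes without a repeat, at 3.07 (2.63 to 4.99) against 5.24 (4.84 to 5.85), and in satellites or simple repeats, at 3.51 (2.78 to 4.44) against 4.37 (3.76 to 5.30), with overlapping intervals in both. Without Vom2r9 and Vom2r56 these medians were 5.15 and 4.13.

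Within 3 kb of a TSS were 7 of the 120 peaks (5.83%, 2.85 to 11.6%) and 53 of 1739 others (3.05%, 2.34 to 3.96%), with overlapping intervals. The nearest of the 7 lay 1217 bp upstream of Vom2r59 at chr12:3968128-3968425, in L1_Rn, with 26 tags and a fold of 12.58. Next came the Olr1474 peak at 1669 bp and a RatSatRep2 peak 2011 bp downstream of the start of Vom2r61, with 40 tags and a fold of 9.67. The peaks of Olr196 and Olr354 lay 2288 and 2405 bp upstream of their genes, with folds of 7.58 and 5.88. An L1_Rn peak of 1175 bp, 2573 bp from the TSS of Olr1569, had 108 tags, the most of any Olr peak, over 16.3 tags of background and a fold of 6.61. The seventh was the Olr299 peak. No receptor-gene peak carried a promoter annotation, while 9 of the 1739 other peaks did (0.518%), and 0 of 120 leaves an upper Wilson bound of 3.10%.

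Olfactory receptors fall into class I, whose genes form a single cluster in mammals, and class II. By the RefSeq names (families 51 to 56, a grouping added after the values were seen), 9 peaks at 8 genes belonged to class I, all on chromosome 1. Their median distance to the TSS was 5.66 kb, and 8 of 9 lay within 10 kb (88.9%, 56.5 to 98.0%), against 19 of the 59 class II peaks (32.2%, 21.7 to 44.9%). The other 5 Olr peaks, nearest Olr1500, Olr1633 and Olr1845, had no family number in RefSeq and were left out. The median fold was 6.52 in class I, with a range of 5.17 to 10.59, and 8.22 in class II. The exception in distance was the Olr51 peak, at 50.97 kb. Class I peaks were in RatSatRep2 (5) or L1 (4).

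Nearly all Olr peaks were centred in repeats. L1 held 38 of 73 (52.1%, 40.8 to 63.1%), of which 31 were L1_Rn, and RatSatRep2, a rat repeat of unassigned class, held 31 (42.5%, 31.8 to 53.9%). Among the other gene-named peaks, L1 held 39.2% (36.9 to 41.5%) and RatSatRep2 28.3% (26.3 to 30.5%). The share with no repeat was 1.37% for Olr (0.242 to 7.36%) and 12.8% for the others (11.3 to 14.5%). Vom2r peaks were mixed. Of 44, 15 had no repeat (34.1%, 21.9 to 48.9%), 10 were in L1, 9 in RatSatRep2 and 9 in satellites or simple repeats, and 11 of the 15 without a repeat were nearest Vom2r9 and 3 nearest Vom2r7. The Vom2r share with no repeat was 17.4% (4 of 23) when Vom2r9 and Vom2r56 were left out, overlapping that of the others. Over all 120 peaks, 49 were in L1 (40.8%), 42 in RatSatRep2 (35.0%) and 10 in satellites or simple repeats (8.33%).

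**Figure D3:**
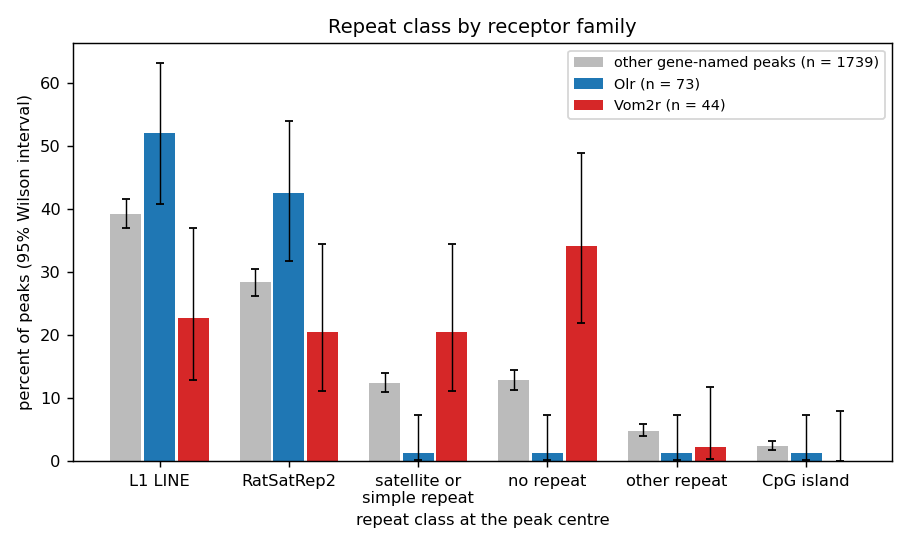
Percent of peaks by repeat class at the peak centre for 1739 other gene-named, 73 Olr and 44 Vom2r peaks, with 95% Wilson intervals as error bars. Olr peaks stand above the others in RatSatRep2, overlap them in L1 and have 1.37% without a repeat, whereas 34.1% of Vom2r peaks have none (17.4% without Vom2r9 and Vom2r56, 6.98 to 37.1%).

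The largest group lay near Vom2r9, a vomeronasal receptor gene of chromosome 1. Its 13 peaks spanned 125.1 kb (chr1:55645623-55770695), 125.1 to 249.9 kb downstream of the TSS. Pileups ran from 60 to 176 tags and backgrounds from 12.0 to 69.7 tags, so that fold enrichment was 2.38 to 4.99 with a median of 2.70. These folds were in the lower part of the range of all 120 peaks. With 11 further deposited peaks of weaker rank between them (fold 1.59 to 2.47), the interval held 24 peaks. Of the 13, 11 had no repeat, and the other 2 were in Lx5, an L1 element, and in B4.

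Vom2r56 on chromosome 7 was the nearest gene of 8 peaks. Of these, 6 lay in the satellite SATI_RN, 605.4 to 619.5 kb downstream of the TSS, with pileups of 132 to 418 tags over backgrounds of 42.4 to 123 tags. The peak at chr7:22323390-22323855 had 414 tags and a fold of 4.53 (4.10 to 4.99), and ranked 14 in the whole list by p-value. At chr7:22327202-22327628 the values were 408 tags and a fold of 3.55 (3.21 to 3.91), and at chr7:22328380-22328807 they were 418 tags and 3.40 (3.08 to 3.74). These 3 peaks, the Olr299 peak and the Olr1569 peak had the 5 smallest p-values of the 120. The 72 SATI_RN peaks at other genes had similar values, with a median of 237 tags and a median fold of 3.04, against 284 tags and 3.44 for the 6 peaks here. The remaining peaks of Vom2r56 were both in L1 elements and lay 553.1 and 944.0 kb from the TSS.

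**Figure D4:**
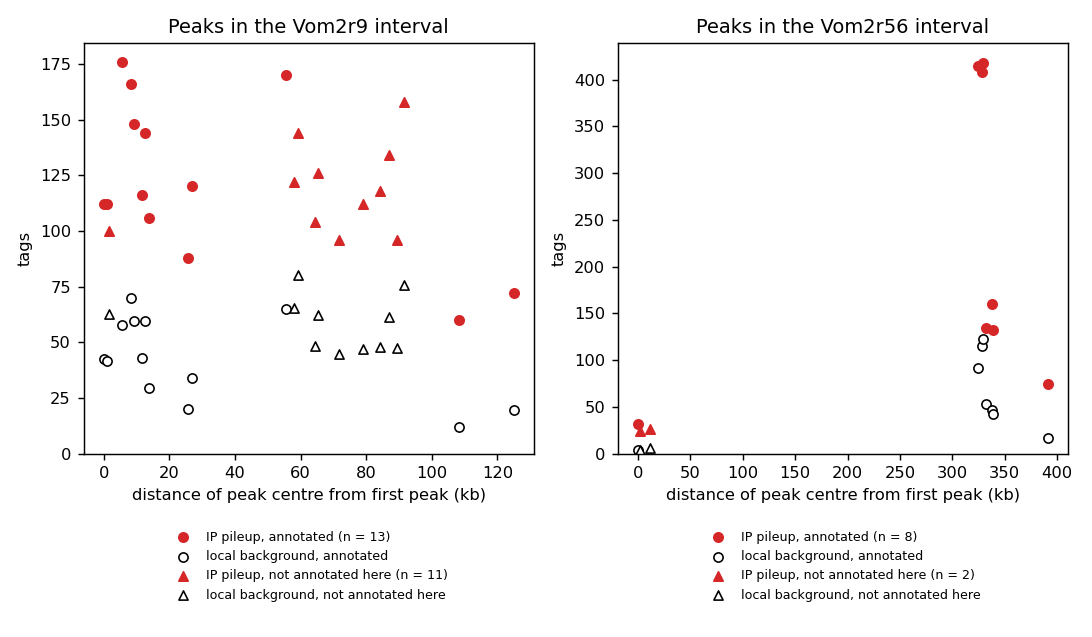
IP pileup (filled) and local background (open) in tags for deposited peaks between the outermost peaks nearest Vom2r9 (left) and Vom2r56 (right), against the distance in kb from the first peak. Circles are peaks with annotation (13 and 8), triangles are the 11 and 2 deposited peaks of weaker rank, and background is above 12.0 tags at every Vom2r9 peak.

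The 4 peaks nearest Vom2r7 spanned 803.1 kb. They had 28 to 144 tags and folds of 3.07 to 9.03, with 3 lacking a repeat and 1 in RatSatRep2. Vom2r3, chosen after its values were seen, was the nearest gene of both gene-named peaks in (CCCTAA)n, the repeat unit of telomeres. They lay close to the start of the chromosome sequence, at chr1:50256-50472 with 78 tags and a fold of 4.44, and at chr1:270799-271028 with 142 tags and a fold of 4.02. Both were upstream of the gene, by 346.3 and 125.8 kb. A further peak nearest Vom2r59, also chosen so, 316.8 kb upstream in the satellite ISAT_RN, had 252 tags over 90.6 tags and a fold of 2.78.

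The Vom1r family was represented by 3 peaks. Vom1r13 on chromosome 1 had a RatSatRep2 peak of 1070 bp with 74 tags and a fold of 7.16, 60.2 kb from the TSS. Vom1r99 on chromosome 4 had a RatSatRep2 peak with 36 tags and a fold of 6.70, and beside it, within a span of 5.27 kb, an L1_Rn peak with 64 tags and a fold of 4.76. These values lay within the range of the Olr peaks.

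Of the 120 peaks, 108 were intergenic (90.0%, 83.3 to 94.2%), 11 were intronic and 1 was at a termination site, compared with 80.1% intergenic peaks among the others (78.2 to 81.9%). The share was 87.9% without Vom2r9 and Vom2r56 (80.0 to 92.9%), which overlaps that of the others. Introns of Vom2r26, Vom2r37, Vom2r61 and Vom2r62 held a peak nearest to the same gene. The peak in the last intron of Vom2r37, chr1:99055935-99056833, had 246 tags over 88.8 tags and no repeat. The peaks nearest Vom2r35 and Vom2r64 lay in introns of the receptor genes Vom2r36 and Vom2r62. Both Olr1500 peaks were in its intron, in RatSatRep2 and RNHAL1, with folds of 9.78 and 8.22. The second Olr1474 peak lay in an intron of the receptor gene Or1e16. The Olr1346 peak was in intron 5 of Ppp1r7, which encodes a regulatory subunit of protein phosphatase 1, and the Olr51 peak in intron 11 of a transcript not matched to a gene in the GRCr8 table used here. Other than at Vom2r37 and the termination site, each of these peaks was in L1 or RatSatRep2.

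The nearest gene was over 500 kb away for 18 of 120 peaks (95% Wilson interval 9.70 to 22.5%), against 18.7% of the others. These were the 8 peaks of Vom2r56, 2 each of Vom2r57, Vom2r7, Olr410 and Olr1455, and 1 each of Olr1765 and Olr901. The farthest, nearest the odorant receptor gene Olr410, lay 1672 kb from its TSS. For such peaks the gene name states only which TSS was closest.

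Receptor-gene peaks were found on 15 chromosomes, with 44 on chromosome 1 (36.7%, 28.6 to 45.6%), against 13.9% of the other gene-named peaks. Without Vom2r9 and Vom2r56 the share was 31.3% (23.0 to 41.0%). The number of receptor genes on each chromosome was not taken into account. Chromosome 1 carried 26 Vom2r, 17 Olr and 1 Vom1r peaks, chromosome 7 had 10 Vom2r and 6 Olr peaks, and chromosome 3 had 12 Olr peaks. All 6 peaks on chromosome 12 were of the Vom2r family. As a share of the gene-named peaks, receptor-gene peaks made up 21.9% on chromosome 10 (7 of 32, 11.0 to 38.8%). It was 19.4% on chromosome 12 (6 of 31, 9.19 to 36.3%), 17.0% on chromosome 7 (10.8 to 25.9%) and 15.4% on chromosome 1 (11.7 to 20.0%). Among chromosomes with any such peak, the lowest shares were 1.65% on X (2 of 121), 1.30% on chromosome 13 and 1.22% on chromosome 9.

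**Figure D5:**
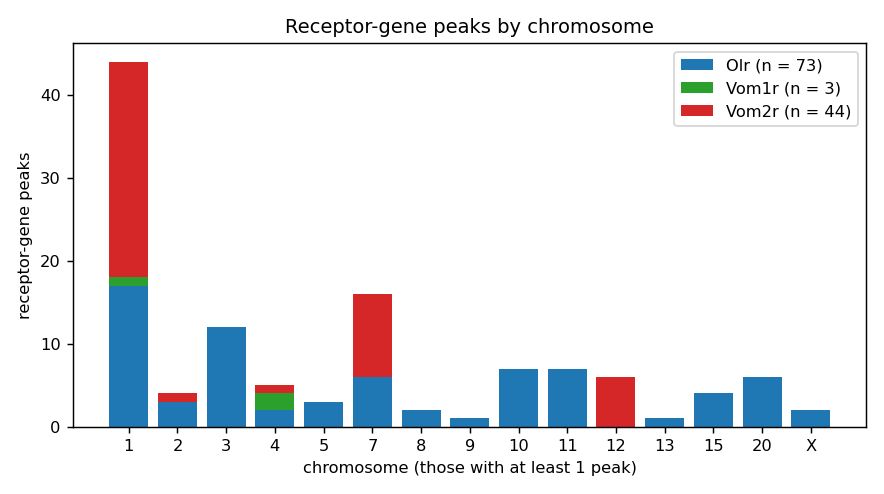
Number of receptor-gene peaks on each of the 15 chromosomes that had any, stacked by family (73 Olr, 3 Vom1r, 44 Vom2r). Chromosome 1 has 44 and chromosome 7 has 16.

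Deposited peaks of any rank were counted within 100 kb of each peak. The median was 2 for receptor-gene peaks (quartiles 1 and 4.25) and 1 for the others (quartiles 0 and 3). No further peak lay within this distance for 27 of the 120 (22.5%, 15.9 to 30.8%), against 29.8% of the others. Olr peaks had a median of 2 neighbours and at most 6, and Vom2r peaks a median of 7 and at most 27, with the highest numbers at Vom2r9. The Vom2r median was 2 when Vom2r9 and Vom2r56 were left out.

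Genes that act with these receptors were looked up among the nearest genes. Of 26 genes for signalling and gene expression in chemosensory neurons, 3 were nearest to an annotated peak, where 1162 of the 23154 protein-coding genes in RefSeq (5.02%) were. Cnga2, a subunit of the cyclic nucleotide-gated channel of olfactory neurons, was nearest to 3 peaks on chromosome 16 with folds of 7.90 to 10.90, but RefSeq places the gene on X. Ebf1, a transcription factor of olfactory neurons and B cells, was nearest to a RatSatRep2 peak 116.8 kb upstream with a fold of 7.66. Ncam2, an adhesion molecule of olfactory axons, was nearest to a RatSatRep2 peak 632.7 kb downstream with a fold of 6.13. These peaks were all intergenic.

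Of 9 name prefixes of other chemoreceptor and odorant carrier families, 2 were present. No share over all genes is given beside this count, so it does not show whether these families were over- or under-represented. Obp1f, an odorant-binding protein of nasal secretions, was nearest to a RatSatRep2 peak on X with 28 tags and a fold of 9.03, 22.2 kb from the TSS. Ms4a2, the beta chain of the IgE receptor of mast cells, was nearest to a peak with 74 tags and a fold of 5.77, and shares the prefix of the chemoreceptor family Ms4a without being an olfactory receptor itself.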

How the data were processed

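ChIP-sequencing reads were aligned to rn6 by the authors, the 2 IP and the 2 input alignments were merged, and peaks were called on the merged files, per the file headers with MACS 2.0.9 in its broad mode and with p-values up to 5e-05. The study instead names MACS 1.4.2 and a limit of 1e-05, and its table legend describes the list as shared between replicates. The header was followed. The deposited signal is the pileup of IP tags at the summit, of 16203958 IP tags and 78371120 input tags kept after filtering. Depths of single samples were not used here. The fold enrichment, a ratio deposited by the authors, sets the pileup against a local background from the input, and that background was recovered here as pileup divided by fold. The deposited -log10 p-values and -log10 q-values were used to rank and filter, and 99.8% of the p-values were recovered within 0.1 from a Poisson distribution. Peak length was used as deposited. The list has 0 unused columns of values per sample.

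Nearest gene, distance to the TSS and repeat were taken from the authors' HOMER 4.7 annotation, joined by chromosome, start and end for 1930 of 1930 peaks. The copy of that annotation used here was shortened to its strongest peaks, so that shares do not describe the whole list. Members and lists were chosen with earlier results of these data known. The genes described were those nearest 3 or more peaks, the 5 largest folds, the 5 smallest p-values, peaks within 3 kb of a TSS, in a gene or CpG island, over 500 kb away or without a repeat, and all Vom1r peaks. Vom2r3, the satellite peak of Vom2r59 and genes named only to spell out a small count were chosen after their values were seen. A called peak has a fold of at least 10. No test was made, as there are no replicate values. Medians have order-statistic intervals, shares Wilson intervals and folds exact Poisson intervals of the pileup. A background within 1% of the smallest was counted as equal to it. The alternatives were filters on distance, p-value, q-value, fold and background, merging of peaks, and the omission of repeats, sequences or genes. RefSeq (GRCr8) was used for names, neighbours and chromosomes only. Python 3.11.15, numpy 2.4.6, pandas 2.3.3, scipy 1.17.1 and matplotlib 3.10.9 were used. Peak sequences need an rn6 genome, which was not used here.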

Additional observations from a re-analysis of the deposited data

How the results depend on the processing

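Of 130 values under 13 alternatives, 96 moved by less than their counting interval or, for counts, by less than 1.5 times, and 34 moved by more. The cause was not tested. With peaks within 100 kb of the TSS only, there were 75 receptor-gene peaks, 8.69% of the gene-named peaks, with a median fold of 8.22, a difference of 0.13 in median log2 fold from the others, 45.3% in RatSatRep2 and 1.33% in satellites or simple repeats. With a -log10 p-value of at least 25 there were 59, with a median of 64 tags, 28.8% in L1 and 15.3% in satellites or simple repeats. With a fold of at least 5, the median fold was 8.33, the pileup 40 tags, the L1 share 50.6%, the satellite share 0%, the distance 18.0 kb and the share within 10 kb 34.8%. With 1 peak per gene the distance was 19.6 kb. With the smallest background only, 4 peaks were left (4.17%), with a median fold of 14.51, 465 bp, 24 tags, 9.72 kb, 75% in L1, 0% in RatSatRep2, 0% in satellites and 50% within 10 kb. Without chromosome 1 there were 76 (4.83%), with a median fold of 8.12 and 50% in L1. In an alternative chosen after seeing the data, without the peaks nearest Vom2r9 and Vom2r56, the receptor share was 5.39%, the satellite share 4.04% and the median distance 20.6 kb. That distance was 40.0 kb over all 120 peaks, with a wide interval. It was also 24.3 kb with merged peaks, 26.5 kb without satellites or simple repeats and 25.5 kb without chromosome 1, each time within that interval. A second such alternative, nearest genes on the same chromosome in RefSeq, moved nothing beyond these limits. With each pair of tags counted once (0 pileups were odd), the ratio of upper to lower bound of a fold had a median of 2.28 instead of 1.78.

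The difference in median log2 fold was below 0 under 6 alternatives, above 0 under 5 and 0 under 1, so that it had no stable sign. No paired analysis was possible because the 2 IP and 2 input samples, which share the numbers 1 and 2, were merged before peak calling and no result comes from a test. For the same reason leave-one-out values were not made. With 22 to 418 tags per peak, folds of single peaks carry wide intervals.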

Other observations

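Ordered by p-value, the gene-named annotated peaks were divided into 5 equal groups, and receptor-gene peaks made up 4.84% of the first (18 of 372, 95% Wilson interval 3.08 to 7.52%), 9.41% of the second (35 of 372, 6.84 to 12.8%), 5.65% of the third, 6.18% of the fourth and 6.20% of the last. The intervals of the first and second overlapped.

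Of the receptor-gene peaks, 77 of 120 lay downstream of the nearest TSS (64.2%, 55.3 to 72.2%), against 46.2% of the other gene-named peaks (43.8 to 48.5%). Without Vom2r9 and Vom2r56 it was 56.6% (46.7 to 65.9%), an interval that overlaps that of the other peaks. The share was 58.9% for Olr and 70.5% for Vom2r, and 43.5% for the 23 Vom2r peaks that remained without Vom2r9 and Vom2r56 (25.6 to 63.2%).

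L1_Rn held 37 receptor-gene peaks (30.8%, 23.3 to 39.6%) and 419 others (24.1%, 22.1 to 26.2%). For L1_Rat1 the numbers were 3 (2.50%, 0.854 to 7.09%) and 130 (7.48%, 6.33 to 8.81%), and for RNHAL1 6 (5.00%) and 121 (6.96%). Over all receptor-gene peaks, the shares of all 3 elements overlapped those of the other peaks. Without Vom2r9 and Vom2r56 the L1_Rn share was 37.4% (28.5 to 47.2%), and for Olr peaks alone it was 42.5% (31.8 to 53.9%). Both of these intervals lay above that of the other peaks, whereas that of Vom2r peaks (11.4%, 4.95 to 24.0%) overlapped it. For L1_Rat1 and RNHAL1 the intervals without Vom2r9 and Vom2r56 still overlapped those of the other peaks.

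The CpG island peak near Olr299 had a fold of 45.96 and the next largest of the 120 was 16.44. Within 100 kb of the Olr299 peak the deposited list held 3 further peaks.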
